A study of Mus musculus with 5 samples.

Results

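The 10 genes described belong to the response of cells to scarce oxygen, most of them as transcripts that rise, and encode no enzyme of glycolysis. They are Hif1a, Egln1, Egln3, Bnip3, Fam162a, Vegfa, Adm, Mif, Ndrg1 and Ankrd37, and they are 10 of the 23771 genes in the deposited table of cancer cells. They were selected by name with their values already known, namely the mean level, the number of cells and the percent of cells with the gene in the TSF and CM libraries of day 16. Those values are therefore given as a description, and no difference between the libraries is offered as evidence. All 10 genes passed the filter on low values, which asked for a UMI in at least 10% of cells by the mean of both libraries' percents, as did 9533 genes in all.

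The cancer cells came from lungs of female BALB/c mice that were 6 weeks old when treatment began. Tumor-secreted factors (TSF), a medium conditioned by pieces of 4T1 tumors and pooled from several tumors, or control medium (CM), which was incubated in parallel without tumor, was given into a vein 3 times per week for 3 weeks. All mice in both groups then received 25000 cells of 4T1, a mouse mammary carcinoma line, into a vein, and the lungs were dissociated 16 days later at 11 weeks of age. The injected cells carried CD90.1, a variant of Thy1 that was delivered by a lentiviral vector and served as reporter. Because the cells entered through the blood, these lung lesions arose without a mammary tumor in the host, and the lungs of 3 mice were pooled into 1 library per group. There is thus 1 sample per group and no replicate check of any difference, and the difference between treatments cannot be told apart from that between the pools.

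In an oxygenated cell, prolyl hydroxylases of the EGLN family mark the alpha subunits of hypoxia-inducible factor (HIF) for destruction through the VHL ubiquitin ligase. When oxygen falls, the alpha subunit persists, pairs with ARNT and binds a short DNA element, the hypoxia response element, near its target genes. The targets include genes that shift cells away from mitochondrial respiration, that recruit blood vessels and that feed back on the sensor itself. Solid tumors that outgrow their vessels are a common setting for this response.

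The element's core, spelled ACGTG or GCGTG, was searched on both strands of RefSeq promoter windows of 300 bases (250 before to 50 after the transcription start, mouse build GRCm38.p6). The windows shown next hold 80 bases upstream of the start that overlap no annotated exon, written 5′ to 3′ on the strand of the gene with matches to the core in capitals. They belong to 3 genes with some of the larger differences between the libraries (Fam162a, Bnip3 and Egln3) and to 3 with small ones (Hif1a, Ankrd37 and Adm).
Fam162a, chr16:36071595-36071674, minus strand: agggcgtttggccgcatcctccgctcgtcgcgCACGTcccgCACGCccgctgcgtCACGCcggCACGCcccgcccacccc
Bnip3, chr7:138909572-138909651, minus strand: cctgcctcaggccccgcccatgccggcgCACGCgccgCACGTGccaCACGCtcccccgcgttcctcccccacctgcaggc
Egln3, chr12:54204045-54204124, minus strand: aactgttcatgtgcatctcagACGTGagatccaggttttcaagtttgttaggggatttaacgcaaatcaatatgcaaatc
Hif1a, chr12:73907725-73907804, plus strand: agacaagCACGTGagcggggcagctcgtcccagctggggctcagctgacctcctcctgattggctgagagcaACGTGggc
Ankrd37, chr8:45999962-46000041, minus strand: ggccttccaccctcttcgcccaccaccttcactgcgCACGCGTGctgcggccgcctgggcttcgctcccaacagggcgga
Adm, chr7:110627547-110627626, plus strand: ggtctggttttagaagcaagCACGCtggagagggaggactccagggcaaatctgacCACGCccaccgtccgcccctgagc

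Capitals read CACGT or CACGC where the core lies on the opposite strand, and CACGTG counts as a match on each strand because its letters read the same on both. Over the whole windows, Fam162a held 6 matches, Bnip3 5, Ankrd37 4 and Hif1a 3, while Egln1, Adm and Vegfa held 2 each and Egln3 and Mif held 1 each. The match of Mif lay after the start, at base 30, and those of the other 8 genes lay before it. A promoter window was matched for 9 of the 10 genes, the exception being Ndrg1. All 9 held the core at least once, whereas 46.7% of the 27025 genes with a window did. Restricted to ACGTG, 8 of the 9 and 21.8% of all genes held it. The genes compared were not matched for base composition or expression, and the 10 genes were named as hypoxia genes, so no enrichment is read from these shares. These letters are a description of sequence, and whether any factor bound there was not measured.

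Levels are given as CP10k, the UMIs (counted mRNA molecules) of a gene per 10000 UMIs of a cell, averaged over the cancer cells of a library. The authors' annotation held 139 cancer cells for TSF and 29 for CM, with median depths of 26615 and 27679 UMIs per cell. Cells under 10000 UMIs made up 10.1% of the TSF and 27.6% of the CM cancer cells. A single UMI in the shallowest CM cell, which had 973 UMIs, adds 0.354 CP10k to the library mean, and in the shallowest TSF cell, which had 909, it adds 0.0791. The libraries shared 31 cell barcodes among all their cells and 0 among cancer cells. As for identity, Krt8 and Krt18, keratins of simple epithelia, were found in 98.6% and 99.3% of TSF cells and in 100% and 96.6% of CM cells. CD90.1 was found in 34.5% of TSF and 6.90% of CM cancer cells, and Epcam, an epithelial adhesion molecule, in 68.3% and 27.6%. The authors identified the cancer cells at the clustering step from CD90.1 expression. The 8 carcinoma or epithelial markers summed to 31.3 and 30.8 CP10k, mostly from Krt8 (11.1 and 10.3) and Krt18 (15.8 and 18.3). All the others were higher in TSF, among them Epcam (1.28 and 0.195), Cldn4 (0.432 and 0.0449) and CD90.1 (0.235 and 0.0343). Krt7 had 1.76 and 1.45 CP10k, Krt19 0.563 and 0.386, and Cdh1 0.132 and 0.0507. All 6 leukocyte, 7 neutrophil and 4 alveolar markers were at 0 in the CM cells. A count of 0 of 29 still allows a share of up to 10.3% at a limit of 3 counts. In the TSF cells these lists summed to 0.173, 1.07 and 0.120 CP10k, with at most 10 cells positive for any marker and 2 neutrophil and 2 alveolar markers at 0.

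All 10 genes had a higher mean level in the TSF than in the CM cancer cells, by 1.07-fold for Vegfa to 3.31-fold for Fam162a as plain ratios of mean CP10k. On the log2 scale with a pseudocount of 1 CP10k, which the study used and which shrinks the difference of low genes, the values ran from 0.04 to 1.29 with a median of 0.38. Of the 9533 genes kept, 39.8% were higher in TSF and the median was -0.04. On that scale 4 of the 10 genes were at least 1.5-fold higher (Fam162a, Mif, Bnip3 and Ndrg1) and 0 were as far lower, where 0.808% of all genes kept were past the limit upward and 2.09% downward. By the plain ratio 6 were at least 1.5-fold higher, Egln3 and Egln1 being added, and 0 lower, beside 14.6% and 28.8% of all genes. Since the genes were chosen on this comparison, nothing is read from these counts.

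**Figure D1:**
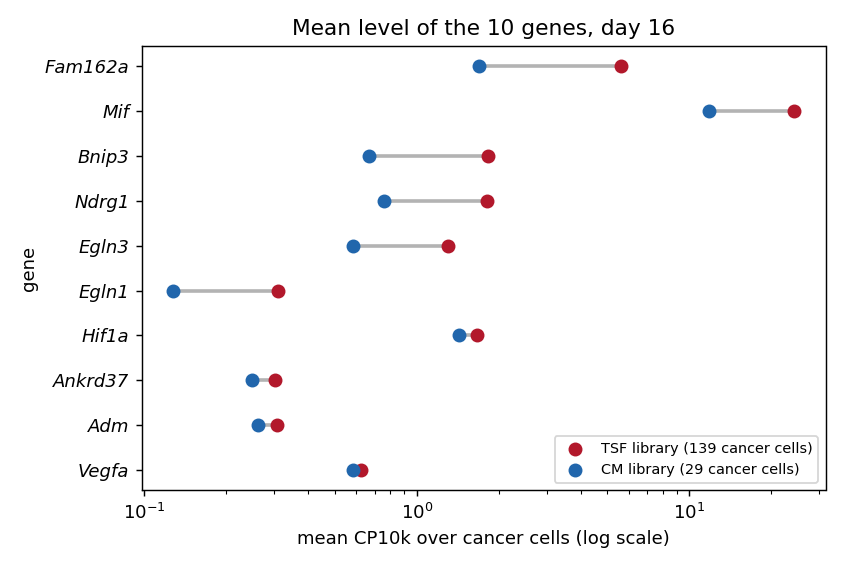
Mean CP10k of each gene (x axis, log scale) at day 16, red for TSF (139 cancer cells) and blue for CM (29 cancer cells), 1 point per library with no error bar because each group had 1 library. The red point lies to the right for every gene, with the widest gap for Fam162a (5.59 against 1.69) and almost none for Vegfa (0.622 against 0.583).

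HIF and its oxygen-sensing hydroxylases were described first. Hif1a, the regulated alpha subunit (chromosome 12, 73901375 to 73947530, plus strand), had a mean of 1.66 CP10k in TSF and 1.43 in CM cells. The difference was 0.13 on the log2 scale with the pseudocount. It was found in 126 of 139 TSF cells (90.6%, exact 95% interval 84.5 to 94.9%) and in 24 of 29 CM cells (82.8%, 64.2 to 94.2%). HIF-1α is set largely by protein stability, which this assay does not read. An unnamed gene model, Gm49321, overlaps Hif1a on the same strand, so reads in the overlap are uncertain.

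Both hydroxylases of the group were higher by plain ratio, and less so on the log2 scale because their means were low. Egln3 (PHD3; chromosome 12, 54178981 to 54203860) had a mean of 1.30 CP10k in TSF and 0.583 in CM cells, a ratio of 2.24 and a log2 difference of 0.54, just short of the 1.5-fold limit of 0.58. Its share of positive cells was 70.5% (98 cells, 62.2 to 77.9%) in TSF and 58.6% (17 cells, 38.9 to 76.5%) in CM. Egln1 (PHD2; chromosome 8, 124908587 to 124949324), the main hydroxylase of HIF-1α in oxygenated cells, had 0.308 and 0.128 CP10k, a ratio of 2.41 and a log2 difference of 0.21. It was found in 64 TSF cells (46.0%, 37.6 to 54.7%) and 7 CM cells (24.1%, 10.3 to 43.5%), so its intervals overlapped by a small margin. The third family member, Egln2, which was not among the 10 genes, had 0.345 and 0.358 CP10k.

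The remaining parts of the sensing machinery were above 0 about as often as all genes kept. Of 17 genes in a list of HIF subunits, hydroxylases, the VHL ligase and coactivators, 14 were kept. On the log2 scale 0 were past 1.5-fold in either direction, beside 0.808% upward and 2.09% downward of all genes kept. Nothing is read from that count in so short a list. Without Hif1a, Egln1 and Egln3 the other 11 had a median of -0.10, with 4 above 0 (36.4%, beside 39.8% of all genes kept). Elob, a subunit of the VHL ligase, was the highest of these at 8.77 against 6.12 CP10k (log2 difference 0.46). Ep300, a HIF coactivator, was the lowest at 0.215 against 0.484 CP10k (-0.29). Arnt, the partner of the alpha subunits, had 0.225 and 0.206 CP10k, and Vhl had 0.0682 and 0.0426. Epas1, which encodes HIF-2α, had a UMI in 4 TSF cells and in 0 of 29 CM cells, and Hif3a in none of either library. A count of 0 of 29 allows a share of cells with a UMI of up to 10.3% at a limit of 3 counts, or 11.9% by the exact interval, and sets no limit on the share of cells that express the gene.

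The mitochondrial genes included the widest difference of the group. Fam162a (chromosome 16, 36043761 to 36071594), which encodes a mitochondrial protein linked to hypoxic cell death, had 5.59 CP10k in TSF and 1.69 in CM cells. The log2 difference of 1.29 was the 6th highest of the 9533 genes kept. It was found in 130 TSF cells (93.5%, 88.1 to 97.0%) and 22 CM cells (75.9%, 56.5 to 89.7%), and within positive cells the mean was 5.98 and 2.23 CP10k. The TSF share of 93.5% is close to the most a share can be, so the split between share and amount per positive cell is not read further.

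Bnip3 (chromosome 7, 138890836 to 138909519), a receptor of the outer mitochondrial membrane that directs mitochondria to autophagy, had 1.83 CP10k in TSF and 0.667 in CM cells. Its ratio was 2.74 and its log2 difference 0.76, the 33rd highest of the genes kept. It was found in 92 TSF cells (66.2%, 57.7 to 74.0%) and 13 CM cells (44.8%, 26.4 to 64.3%). Its relative Bnip3l had 2.79 and 1.94 CP10k (log2 difference 0.37). Apart from Bnip3, 0 of the 11 kept genes of a mitophagy and BNIP3 partner list were past 1.5-fold. Over all genes kept, 0.808% were past it upward, 2.09% downward and 39.8% were above 0. Of the 11, 45.5% were above 0, and their median was -0.04. Among them Gabarap, a protein of the autophagosome membrane, had 5.62 and 4.35 CP10k, Pink1, a kinase of the other route to mitophagy, 0.207 and 0.268, and Bcl2, a survival protein that binds BNIP3, 0.299 and 0.555.

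Of the secreted factors, Mif alone was past the limit. Mif (chromosome 10, 75859353 to 75860240), a cytokine that binds the surface receptor CD74, had 24.3 CP10k in TSF and 11.8 in CM cells, a ratio of 2.06 and a log2 difference of 0.98. It was found in nearly every cell, 135 of 139 in TSF (97.1%, 92.8 to 99.2%) and 29 of 29 in CM (100%, 88.1 to 100%), so its share could hardly differ. RefSeq lists 3 pseudogenes of Mif, and reads shared with such copies would make its value uncertain. Mif made up most of the summed level of the 10 genes, which was 38.0 CP10k in TSF and 18.2 in CM, and 13.7 and 6.35 without it.

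Vegfa and Adm, whose products act on blood vessels, differed little in mean level. Vegfa (chromosome 17, 46016993 to 46032369), the growth factor that draws in new vessels, had 0.622 CP10k in TSF and 0.583 in CM, a log2 difference of 0.04. Its share of positive cells was lower in TSF, at 48.2% (67 cells, 39.7 to 56.8%) against 62.1% (18 cells, 42.3 to 79.3%), and its mean within positive cells was higher, at 1.29 against 0.939 CP10k. Adm (chromosome 7, 110627661 to 110629820), the precursor of the vasodilator peptide adrenomedullin, had 0.308 and 0.261 CP10k, a log2 difference of 0.05. It went the other way from Vegfa, being found in 27 TSF cells (19.4%, 13.2 to 27.0%) and only 2 CM cells (6.90%, 0.846 to 22.8%), with a mean within positive cells of 1.59 and 3.79 CP10k. The CM mean of Adm therefore rests on 2 cells, and it is smaller than what 1 UMI in the shallowest CM cell would give.

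For the partners of these ligands, 9 of 17 listed genes were kept. Of the 9, 0 were past 1.5-fold upward and 1 downward, beside 0.808% and 2.09% of all genes kept. The gene past the limit was Cd74, the MIF receptor and invariant chain of MHC class II, with 4.23 CP10k in TSF and 21.5 in CM cells (log2 difference -2.10). Nrp2, a VEGF co-receptor, had 1.39 and 2.50 CP10k (-0.55), and Cd44, which signals with CD74, had 1.95 and 3.12 (-0.48). The VEGF receptor gene Flt1 had 0.510 and 0.483 CP10k. Ramp1, an accessory protein of calcitonin-family receptors, had 0.362 and 0.156, while the adrenomedullin receptor gene Calcrl was found in 5 TSF and 0 CM cells. Mif and Cd74 thus differed between the libraries in opposite directions.

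Ndrg1 and Ankrd37 belong to neither class. Ndrg1 (chromosome 15, 66929318 to 66969640), a cytoplasmic stress-response protein described as a suppressor of metastasis in several cancers, had 1.81 CP10k in TSF and 0.759 in CM, a ratio of 2.38 and a log2 difference of 0.68. It was found in 92 TSF cells (66.2%, 57.7 to 74.0%) and 15 CM cells (51.7%, 32.5 to 70.6%). Of its family, Ndrg3 had 0.119 and 0.194 CP10k, and Ndrg2 and Ndrg4 were found in 2 and 4 TSF cells and in 0 CM cells. Ankrd37 (chromosome 8, 45996902 to 46005707), an ankyrin repeat protein, had 0.302 and 0.249 CP10k, a log2 difference of 0.06, with 31 positive TSF cells (22.3%, 15.7 to 30.1%) and 6 CM cells (20.7%, 7.99 to 39.7%). Ankrd37 was also the 1 gene of the 10 in none of the 9 deposited gene sets named for hypoxia or HIF1.

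**Figure D2:**
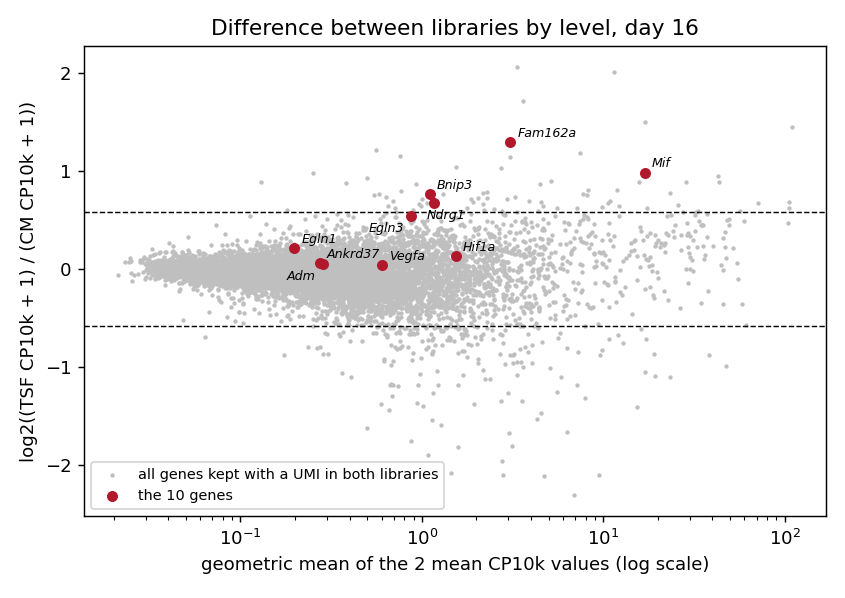
Difference between the libraries, log2((TSF CP10k + 1) / (CM CP10k + 1)), against the geometric mean of both mean CP10k values (log scale) for the genes kept that had a UMI in both libraries (grey) and the 10 genes (red), with dashed lines at 1.5-fold. Fam162a at 1.29 and Mif at 0.98 lie among the 77 genes above the upper line, as do Bnip3 and Ndrg1, while Egln3 lies just under it and the other 5 lie closer to 0.

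Across the 10 genes the share of positive cells was higher in TSF for 8 and lower for 2 (Mif and Vegfa), where 49.6% of the genes kept had a higher share. The exact 95% intervals, which cover counting error only, overlapped between libraries for all 10 genes. They were apart upward for 1.16% and downward for 1.56% of the genes kept. The mean within positive cells was higher in TSF for 9 genes and lower for Adm, where 35.9% of the genes kept were higher. With 29 CM cells the intervals spanned up to 38.0 percentage points. Overlap of these intervals does not show that the shares are equal, and no test of a difference was made. How often these genes are found in cells that do not express them was not analysed here.

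**Figure D3:**
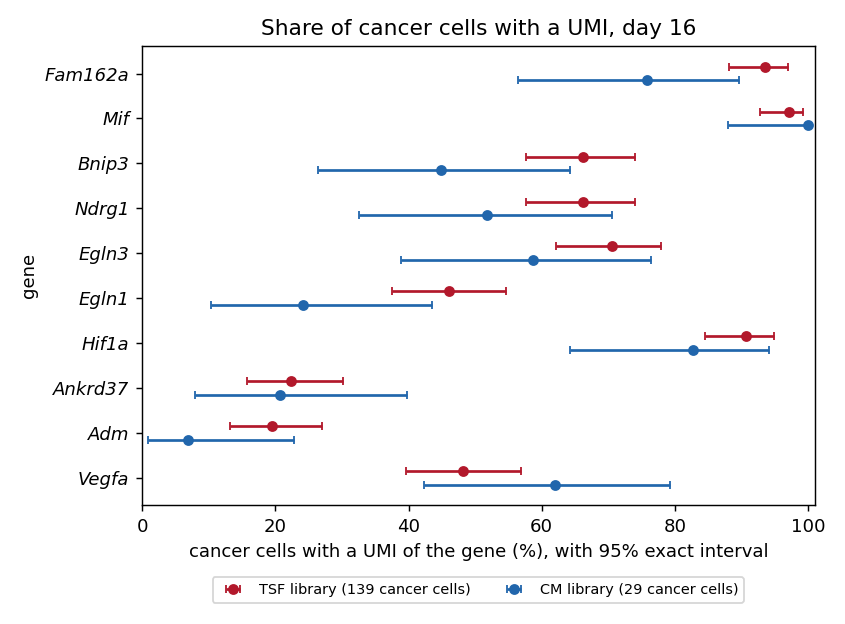
Share of cancer cells with a UMI of each gene (x axis, percent) in the TSF (red) and CM (blue) libraries, with exact 95% intervals as bars. The bars of the 2 libraries overlap for every gene, and the CM bars are the wider ones, as for Vegfa from 42.3 to 79.3%.

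Several of the genes were concentrated in fewer cells than their mean level would give. An expected share was computed for each gene as if every cell of a library held the library's mean level and cells differed only in depth. In the TSF library the observed share was below the expected one for all 10 genes, and in the CM library for 9, against 79.6% and 64.5% of the genes kept. The median gap of the 10 genes was -23.5 percentage points in TSF and -11.7 in CM, against -2.66 and -2.33 over the genes kept. Adm was found in 19.4% of TSF cells where 54.3% were expected. Ankrd37 was found in 22.3% against 53.6%, and Vegfa in 48.2% against 75.7%.

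Bnip3 and Ndrg1 shared this spread, each found in 66.2% of TSF cells against 93.6% and 93.5% expected, and Egln3 was found in 70.5% against 90.3%. These 6 genes lay in the lowest 5% of all genes kept for the gap in TSF. In CM 4 of them did (Adm, Bnip3, Ndrg1 and Ankrd37), with Bnip3 at 44.8% against 71.9% and Adm at 6.90% against 44.6%. Hif1a was by contrast spread nearly evenly, at 90.6% against 92.8% in TSF and 82.8% against 87.3% in CM. So was Egln1 in CM (24.1% against 26.3%). The CM means of Adm, Ankrd37 and Egln1 rest on 2, 6 and 7 cells. Each is below the 0.354 CP10k that 1 UMI in the shallowest CM cell adds, so their CM gaps are uncertain. Of the lists described below, glycolysis genes had a median gap of -2.42 points in TSF, other hypoxia-induced genes -8.11 and Hallmark hypoxia -7.15. The 8 carcinoma or epithelial markers had one of -16.5 and the 10 immediate-early genes one of -24.7. The 5 cell-cycle genes, whose transcripts are limited to dividing cells, had one of -37.1. Gaps as wide as the median of the 10 genes were thus not particular to them. An observed share can fall below the expected one by no more than the expected share itself, so low expected shares allow only narrow gaps. Whether the same cells carried several of these genes was not analysed here.

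**Figure D4:**
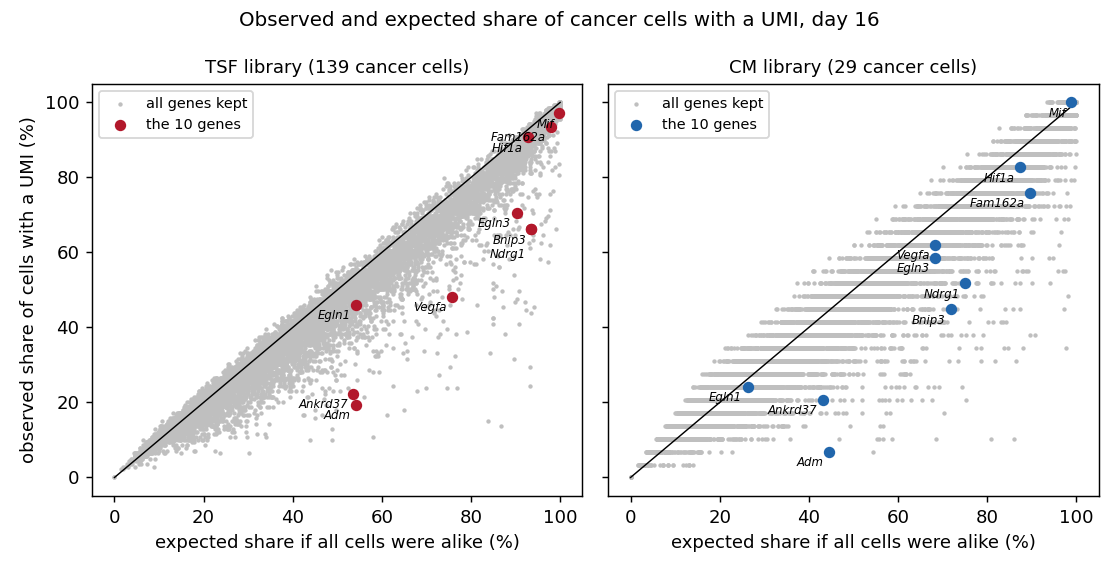
Observed share of cancer cells with a UMI (y axis, percent) against the share expected if all cells held the mean level (x axis, percent), in the TSF (left) and CM (right) libraries, with all genes kept in grey, the 10 genes in colour and a line where both are equal. Adm, Ankrd37, Vegfa, Bnip3, Ndrg1 and Egln3 lie well below the line in TSF (Adm 19.4% against 54.3%), and Hif1a lies close to it.

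Other known hypoxia-induced genes outside glycolysis, listed apart from the 10, held genes that were higher and genes that were lower in TSF, in a balance that turned with the scale. Of 42 listed, 28 were kept, with 17 above 0 (60.7%, against 39.8% of all genes kept) and a median log2 difference of 0.09. With the pseudocount 2 were past 1.5-fold upward and 3 downward, beside 0.808% and 2.09% of all genes. Counting Car12, which was at 0 in CM and passed the filter only through TSF, 12 were at least 1.5-fold higher by the plain ratio. As far lower were 5, beside 14.6% higher and 28.8% lower of all genes. The highest were Ero1l, an oxidase of protein folding in the endoplasmic reticulum, at 1.64 against 0.612 CP10k (0.71), and Higd1a, a mitochondrial survival protein, at 2.49 against 1.27 (0.62). Next were Car9, the tumor carbonic anhydrase widely used as a hypoxia marker, at 0.759 against 0.202 (0.55), and the proteoglycan Sdc4 at 5.57 against 3.91 (0.42). The lowest were Errfi1, a feedback inhibitor of the EGF receptor, at 2.18 against 4.81 (-0.87), Plaur, the urokinase receptor, at 1.35 against 2.99 (-0.77), Wsb1, part of a ubiquitin ligase, at 0.538 against 1.43 (-0.66), and Anxa1 at 5.53 against 7.08 (-0.31).

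In the share of positive cells, 6 of these 28 genes had intervals apart and higher in TSF, and 0 lower, beside 1.16% and 1.56% of all genes kept. The 6, named after their values were seen, were Car9, Car12, P4ha1, P4ha2, Tfrc and Ero1l. Car9 was found in 56.8% of TSF cells (48.2 to 65.2%) and 20.7% of CM cells (7.99 to 39.7%). Car12, another carbonic anhydrase, was found in 37 TSF cells (26.6%, 19.5 to 34.8%) and 0 of 29 CM cells (0 to 11.9%, where a limit of 3 counts allows 10.3%). It passed the filter through its TSF share alone, so nothing is read from its place among the 6. P4ha1, a collagen prolyl hydroxylase, was found in 84.2% (77.0 to 89.8%) and 51.7% (32.5 to 70.6%).

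The wider hypoxia sets held genes past the limit in both directions. The deposited Hallmark hypoxia set, which holds 5 of the 10 genes (Fam162a, Mif, Vegfa, Ndrg1 and Adm), had 139 genes kept and a median of 0.02. Of these 139, 8 were past 1.5-fold upward and 9 downward, beside 0.808% and 2.09% of all genes kept. Above 0 were 53.2% of them, beside 39.8% of all genes kept. By the plain ratio 41 were past the limit upward and 30 downward, beside 14.6% and 28.8% of all genes kept. The 41 include Car12, which passed the filter only through TSF. Of the 8, 3 were among the 10 genes and 4 were glycolysis genes, and without the 10 genes the counts were 5 and 9 of 134. The highest after Fam162a were Pgk1, a glycolytic kinase, at 4.45 against 1.67 CP10k (1.03), Mif, and Mt1, a metallothionein, at 21.8 against 11.3 (0.89). The lowest were Atf3 (2.73 against 17.5, -2.31), Jun (9.06 against 25.7, -1.41), Ccn1 (3.33 against 9.39, -1.26) and Zfp36 (3.74 against 9.22, -1.11). Over all 9 deposited hypoxia or HIF1 sets, which held 9 of the 10 genes, 255 genes were kept, with a median of -0.03. Of these, 10 were past the limit upward and 15 downward, beside 0.808% and 2.09% of all genes kept. By the plain ratio 52 were past it upward and 58 downward, beside 14.6% and 28.8%. Above 0 were 46.3% of the 255, beside 39.8% of all genes kept.

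Atf3, Jun and Zfp36 belong to a separate list of 10 immediate-early genes that rise within minutes of stress, tissue dissociation included. All 10 of that list were lower in TSF, 6 of them past 1.5-fold, where 2.09% of all genes kept were. The summed level of the list was 56.4 CP10k in TSF and 130.1 in CM. Ribosomal protein genes took 24.7% of all UMIs in TSF and 19.3% in CM, and mitochondrially encoded genes 2.20% and 2.11%. Cell-cycle genes summed to 6.82 and 6.85 CP10k. The part of the immediate-early difference, of the ribosomal share and of cell depth in the values of the 10 genes was not tested, apart from the rescaling without ribosomal protein genes.

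The glycolysis genes served as the nearest neighbours of the 10 genes among HIF targets. All 18 were kept, 15 were above 0 (83.3%, beside 39.8% of all genes kept), and the median was 0.18. Past 1.5-fold were 4 upward (Pgk1, Aldoa, Ldha and Tpi1, named after their values were seen) and 0 downward. Over all genes kept, 0.808% were past it upward and 2.09% downward. Of the 3 with the highest mean level, Gapdh had 22.4 and 18.1 CP10k (0.30), Pkm 14.6 and 13.1 (0.15) and Aldoa 14.2 and 8.40 (0.70). With 1 library per group, whether the 10 genes differed more than the glycolysis genes was not tested.

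**Figure D5:**
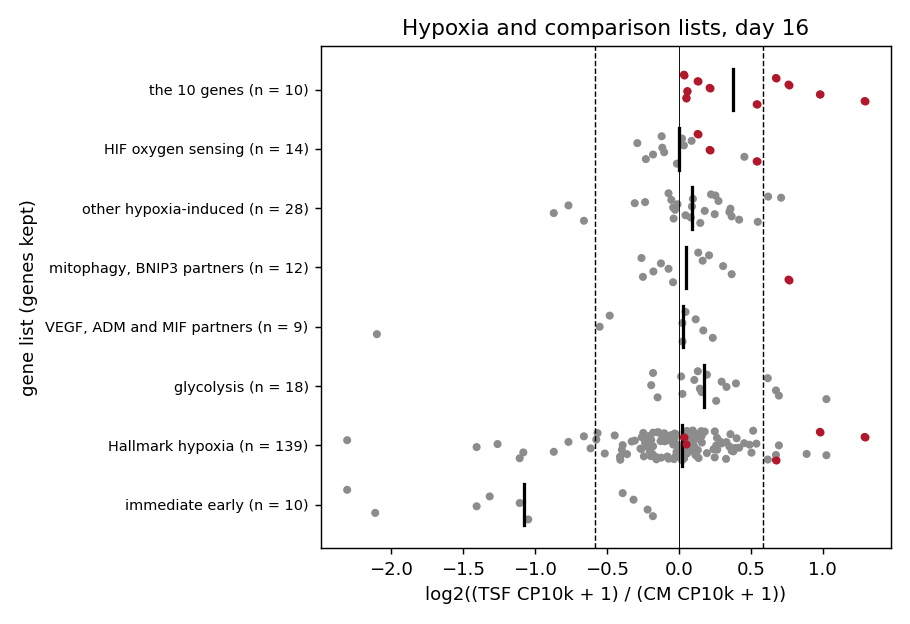
Difference between the libraries, log2((TSF CP10k + 1) / (CM CP10k + 1)), of each gene kept in 8 lists, with the 10 genes in red wherever they occur, black bars at list medians and dashed lines at 1.5-fold. The 10 genes (median 0.38) and glycolysis (0.18) lie mostly to the right of 0, Hallmark hypoxia (0.02) is centred on it, and the immediate-early genes lie wholly to its left.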

How the data were processed

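Droplet libraries (10x Genomics 5′ chemistry) were made from pooled lung dissociations. The authors mapped reads with Cell Ranger to the mouse genome (mm10, GRCm38.p6), to which the CD90.1 sequence had been added, imported the matrices with Seurat 4.1.0 and removed ambient RNA with a customised SoupX, which can set low values to 0. The deposited cell table gives UMI counts per cell after that correction, and 2 libraries in it that are not among the samples were not used. The deposited gene table gives, for the cancer cells of day 16, the mean CP10k, the number of cells and the percent of cells with the gene. Its columns of the authors' own fold changes, p-values and q-values, and their enrichment scores, were not used. No matrix of single cells was used, so cells were neither thinned to equal depth nor checked for doublets, and cancer cells are those of the authors' annotation.

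The difference was log2((TSF CP10k + 1) / (CM CP10k + 1)), over 9533 of 14735 genes with a UMI. With 1 library per group no test was made, and differences were described by a fixed limit of 1.5-fold. Shares carry exact Clopper-Pearson 95% intervals, which cover counting error only. For any count of 0 in the 29 CM cells, the limit that 3 counts would allow is a share of 10.3%. The expected share is the mean over cells of 1 minus the Poisson probability of no UMI at the cell's depth. The main text names all 10 genes, any gene of the sensor, family and partner lists, the 4 highest and 4 lowest kept genes of the other lists, and the 3 glycolysis genes of highest level, and it says where a gene was named after its values were seen. Markers of macrophages (6), T and B cells (4), endothelium (5) and fibroblasts and pericytes (5) summed to 0, 0.0171, 0.196 and 0.544 CP10k in TSF and 0.00936, 0.00958, 0.0588 and 0.407 in CM, and of these lists only Pdgfra passed the filter. The genes and the lists were chosen with earlier results of these data known. Gene positions are from GENCODE M21 (GRCm38) and promoter windows from RefSeq. The scripts were checked on simulated data. Tools were scipy 1.17.1, pandas 2.3.3, numpy 2.4.6 and, for plots, matplotlib 3.10.9, under Python 3.11.15.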

Additional observations from a re-analysis of the deposited data

How the results depend on the processing

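The median log2 difference of the 10 genes stayed above 0 under every alternative tried. Each alternative reused the values on which the genes were chosen, so no support for a difference is read from it. The median was 0.94 with a pseudocount of 0.1 CP10k, 1.10 with none, and 0.61 when genes had to be found in at least 25% of cells, which dropped Adm and Ankrd37. The number of genes at least 1.5-fold higher moved from 4 to 6 without a pseudocount or with 0.1 CP10k, to 5 without ribosomal protein genes in the total (Egln3 joining at 0.67), to 2 when shares of positive cells replaced levels, and to 1 at a limit of 2-fold. Of all genes kept, 0.808% were past the limit upward in the main setting, 7.19% with 0.1 CP10k and 14.5% without a pseudocount. It was 1.23% without ribosomal protein genes, 9.25% by shares of positive cells and 0.136% at 2-fold. Counts at different settings are therefore not directly comparable. The number lower moved from 0 to 1 with the mean of positive cells, the 1 being Adm at -0.89, while its share of cells gave 1.49. By the mean of positive cells, 3.21% of all genes were past the limit downward. Mif, at 0.98, gave -0.042 as a share of cells because nearly every cell was positive. For Hallmark hypoxia the counts of 8 higher and 9 lower became 40 and 30 without a pseudocount, beside 14.5% and 28.8% of all genes. Its median was -0.01 at the 25% minimum and with the mean of positive cells. Over the alternatives, the number of genes past the limit ranged from 1 to 8 higher for glycolysis, from 0 to 11 higher and 0 to 5 lower for the other hypoxia-induced genes (11 and 5 without a pseudocount, Car12 having no ratio because it was at 0 in CM), and from 0 to 3 in either direction for the sensor list. Over all genes kept, 77 higher and 199 lower became 685 and 1683 with a pseudocount of 0.1 CP10k. The percent of all genes past the limit ranged over the alternatives from 0.136% to 14.5% higher and from 0.566% to 28.8% lower. The median of all genes kept was -0.04, and -0.19 without a pseudocount, so plain ratios lie against that shift. The core was found in 8 of 9 promoters when only the 250 bases before the start, or only ACGTG, were searched. Of all genes with a window, 41.5% and 21.8% held it in these searches.

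Leaving out a replicate was not possible with 1 library per group. No paired analysis was possible because each group compared had 1 library and no test was made. Precision is limited by the 29 CM cells, of which 8 had under 10000 UMIs, and differences between mice were not measured.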
